A study of Mus musculus with 12 samples.

Results

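The genes described here make, store, take up or burn fat: Mogat1, Dgat1 and Dgat2 of triglyceride synthesis, the lipid droplet protein Plin2, the uptake genes Cd36 and Lpl, and Cpt1a, Acadvl, Acadl and Acadm of mitochondrial fatty acid oxidation. They are 10 of the 25861 genes in the count table, and all 10 were among the 17024 with enough counts to be tested, with a lowest library count of 25 for Cd36. The set was selected on measured values of these libraries: it was picked because Mogat1 and Acadm fell after Cldn7 knockdown. The values of Mogat1 and Acadm against the control are therefore given as a description with no p-value. Both genes are counted where genes past the threshold are counted, and nothing is read from those values or counts.

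RNA was sequenced from organoids grown out of MMTV-Neu mammary tumours, where the Neu oncogene is driven by the promoter of mouse mammary tumour virus, active in mammary epithelium. Each group had 4 libraries. The groups were organoids with hairpin 1 (sh1Cldn7 knockdown, sh1 treatment), organoids with hairpin 2 (sh2Cldn7 knockdown, sh2 treatment) and a control (labelled WT, Non-targetting sh), so the control also carries the Neu transgene, a lentiviral hairpin and the drug selection. A short hairpin RNA lowers the messenger RNA it matches, here that of Cldn7, a claudin of epithelial tight junctions. All organoids received virus at a multiplicity of infection of 20, puromycin at 3 µg/ml for 3 days, and then 5 days in collagen I with 2.5 nM FGF2, and the stated question was the part of Cldn7 in invasion and metastasis. The labels give no age for the animals and do not state that the replicates were separate animals or cultures. A p-value here therefore covers the spread among these libraries, which may be technical.

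Triglyceride is built by adding fatty acids to a glycerol backbone, through monoacylglycerol or glycerol phosphate, and is kept in lipid droplets. Mammary epithelium is known for making large amounts of it in lactation, when droplets leave the cell as milk fat, and the gland takes part of the fatty acids from blood lipoproteins through lipoprotein lipase. Fatty acids are burned in mitochondria after transfer to carnitine, in repeated rounds that each begin with an acyl-CoA dehydrogenase. Many genes of both branches are textbook targets of the PPAR nuclear receptors, which bind as pairs to repeats of the hexamer AGGTCA.

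The promoter letters of Mogat1 and Acadm are shown because these are the genes the choice rested on, and those of 4 further genes because they hold the AGGTCA hexamer. RefSeq promoters on GRCm38.p6 (250 bases before to 50 after the start of the promoter entry, 300 in all) were found for 7 of the 10 genes, not for Dgat1, Dgat2 and Lpl. That start can differ from the end of the gene span printed below. The Cd36 promoter (17835847 to 17836146) lies inside its gene span of 17781690 to 17888801. The Cpt1a promoter (3323051 to 3323350) lies downstream of the first base of its span, 3322334. AGGTCA on either strand occurred in 5 of the 7, those of Acadm, Plin2, Cd36, Acadvl and Cpt1a, against 16.3% of 32851 promoters in the table and 13.2% of the 16133 that belong to tested genes. The DR1 element, a direct repeat of that hexamer with any 1 base between the copies, so that each match also counts as a hexamer, occurred in 0 of the 7 and in 0.0396% of promoters. Among other motifs, on either strand, CCAAT was in 4 of the 7 (37.4% of promoters), GGGCGG in 4 (35.7% of promoters and 57.6% of those of tested genes), CACGTG in 1 (7.15%) and TATAAA in 0 (13.6%). These are letters in a window, not bound sites. The Mogat1 promoter (chr1:78510810-78511109, plus strand) has no AGGTCA, and its capitals mark CCAAT on the minus strand; the Acadm promoter (chr3:153944594-153944893, minus strand) has capitals on the hexamer, which reads TGACCT here because it lies on the other strand. In the shorter windows, of 36 bases each, capitals mark the hexamer with its flanks: Plin2 (chr4:86670257-86670292, minus strand), Cd36 (chr5:17836104-17836139, minus strand), Acadvl (chr11:70015495-70015530, minus strand) and Cpt1a (chr19:3323192-3323227, plus strand).
Mogat1: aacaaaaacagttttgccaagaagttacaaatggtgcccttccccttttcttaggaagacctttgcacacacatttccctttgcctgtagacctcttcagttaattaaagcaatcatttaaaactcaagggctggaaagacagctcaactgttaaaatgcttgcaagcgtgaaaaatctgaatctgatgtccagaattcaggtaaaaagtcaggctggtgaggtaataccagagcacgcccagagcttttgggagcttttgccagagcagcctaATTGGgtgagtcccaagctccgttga
Acadm: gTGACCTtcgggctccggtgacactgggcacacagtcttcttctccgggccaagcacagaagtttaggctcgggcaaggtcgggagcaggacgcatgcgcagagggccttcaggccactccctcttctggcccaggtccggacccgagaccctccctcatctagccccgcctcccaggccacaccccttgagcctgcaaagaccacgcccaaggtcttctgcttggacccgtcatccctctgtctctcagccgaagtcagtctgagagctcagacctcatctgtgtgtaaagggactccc
Plin2: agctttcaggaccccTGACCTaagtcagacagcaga
Cd36: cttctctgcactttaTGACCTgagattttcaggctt
Acadvl: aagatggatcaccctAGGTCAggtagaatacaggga
Cpt1a: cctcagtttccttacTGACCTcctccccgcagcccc
In the Acadm promoter the hexamer begins 249 bases before the start of the promoter entry, in Plin2 218, in Cd36 228, in Acadvl 87 and in Cpt1a 94.

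Total counts were 34988358 to 76329473 per library, and higher in replicates 3 and 4 of every group than in replicates 1 and 2. Levels are given in CPM, the count of a gene relative to the scaled total of its library. Cldn7 checked the labels: it stood at 31.1, 30.0, 44.2 and 29.0 CPM with hairpin 1 (replicates 1 to 4), at 27.4, 25.4, 34.7 and 26.1 CPM with hairpin 2, and at 144, 136, 186 and 101 CPM in the control. Its log2 fold change was -2.18 (SE 0.07) over both hairpins, and its level with hairpin 2 minus hairpin 1 was -0.23 (SE 0.08; edgeR adjusted p = 0.148). Libraries with the same replicate number deviated together, so the replicate number was kept in the model. Without it, Cldn7 alone passed the threshold of 0.05 against the control in the 3 control contrasts, and Nfe2l2 alone between the hairpins, so every call below except that of Cldn7 rests on the pairing by replicate number. The contrasts of each hairpin share the control libraries.

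Against the control, 2 of the 10 genes passed over both hairpins, Mogat1 and Acadm, both lower, where 1.79% of all tested genes passed (0.84% higher and 0.946% lower). With hairpin 1, 1 of 10 passed (Mogat1, lower), where 0.728% of all genes passed (0.382% higher and 0.347% lower). With hairpin 2, 2 of 10 passed (Mogat1, lower, and Dgat1, higher), where 5.76% of all genes passed (2.83% higher and 2.93% lower). Because 2 of these genes chose the set, nothing is read from these counts. In bulk samples like these, fewer cells of a type and less RNA per cell cannot be told apart. The median log2 fold change of the 10 genes was 0.02 over both hairpins, 0.02 with hairpin 1 and 0.01 with hairpin 2, where the medians of all genes were -0.0024, -0.0018 and 0.0044. The choice rested on the fall against the control, not on hairpin 2 against hairpin 1, but that fall was measured in the same hairpin libraries. Between the hairpins 2 of 10 passed, Mogat1 and Dgat1, both higher with hairpin 2, where 3.44% of all genes passed (1.57% higher and 1.87% lower).

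**Figure D1:**
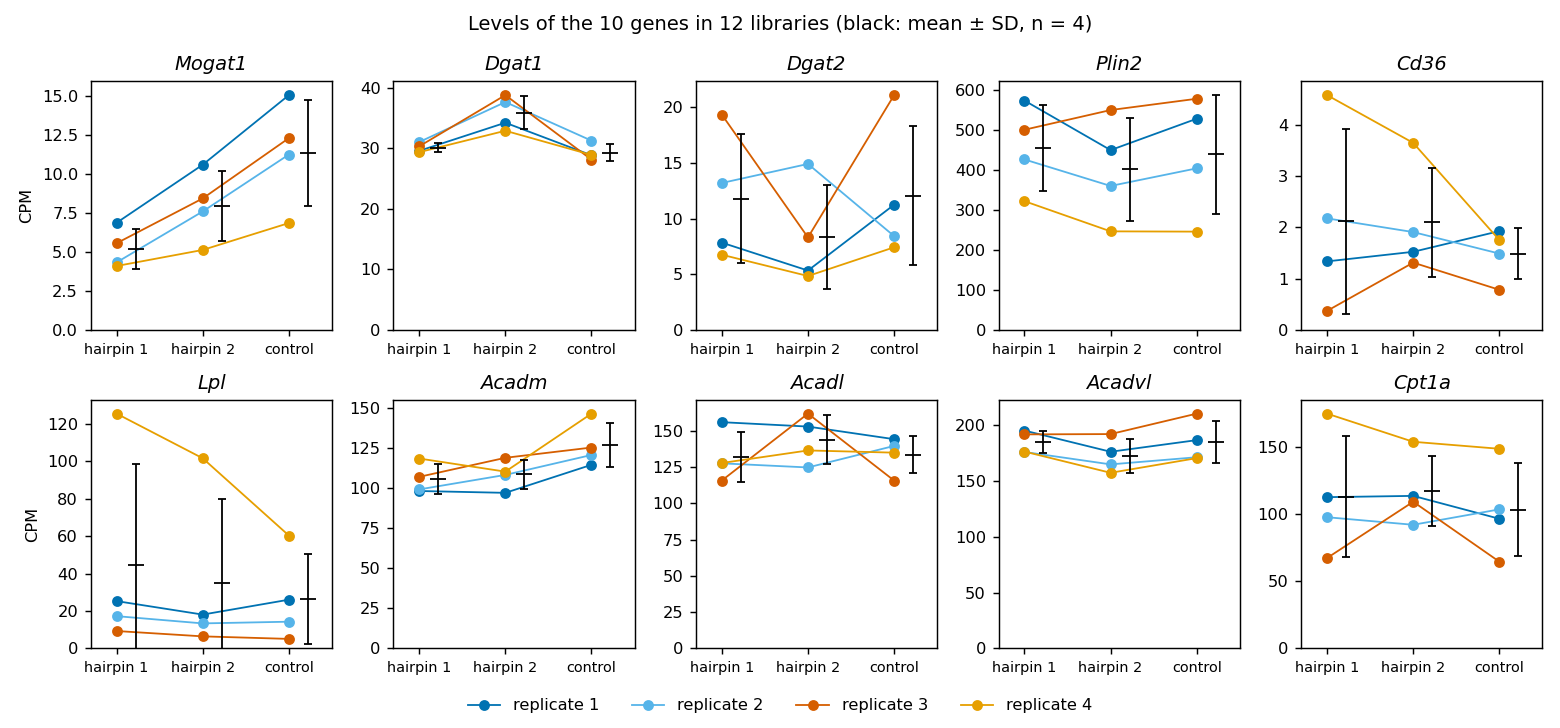
Level of each gene in CPM (vertical axis, from 0, a scale per gene) with hairpin 1, hairpin 2 and the control; coloured lines join libraries of the same replicate number, and black marks give mean ± SD of 4 libraries, ending at the axis where the SD passes 0. Mogat1 is lower with hairpin 1 than with hairpin 2 and lower with hairpin 2 than in the control on all 4 lines, while the Dgat1 lines peak at hairpin 2 and Lpl is set apart by replicate 4.

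Mogat1 (chromosome 1, 78510991 to 78538173, GRCm38, plus strand) encodes an acyltransferase that turns monoacylglycerol into diacylglycerol, the precursor of triglyceride. It stood at 6.87, 4.33, 5.56 and 4.10 CPM with hairpin 1 (5.21 ± 1.28, SD, n = 4), at 10.6, 7.60, 8.43 and 5.13 CPM with hairpin 2 (7.94 ± 2.26, SD, n = 4) and at 15.1, 11.3, 12.3 and 6.85 CPM in the control (11.4 ± 3.41, SD, n = 4). Each group ranged widely and overlapped the next, but within every replicate number the order was the same: lowest with hairpin 1, then hairpin 2, then the control. The gene was below its same-numbered control in 8 of 8 pairs, as were 4.29% of all tested genes. Its log2 fold change was -0.80 (SE 0.10) over both hairpins, -1.09 (SE 0.12) with hairpin 1 and -0.51 (SE 0.11) with hairpin 2, which left 46.9% of the control level with hairpin 1 and 70.2% with hairpin 2. In replicates 1 and 2 alone the value over both hairpins was -0.89 (SE 0.13), and in replicates 3 and 4 alone it was -0.69 (SE 0.16).

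Between the hairpins Mogat1 was higher with hairpin 2 by 0.58 on the log2 scale (SE 0.12; edgeR adjusted p = 0.0276). The choice rested on its fall in these same hairpin libraries, so this p-value is not an independent test. Mogat1 was higher with hairpin 2 in 4 of 4 pairs, as were 15.6% of all genes, by 0.32 to 0.81. Cldn7, the target, was lower with hairpin 2 than with hairpin 1 in 4 of 4 pairs, as were 14.7% of all genes, but did not pass (edgeR adjusted p = 0.148). A link between the Mogat1 and Cldn7 differences was not tested. The Mogat1 difference was 0.71 (SE 0.16) in replicates 1 and 2 alone and 0.46 (SE 0.19) in replicates 3 and 4 alone. The call did not hold without control replicate 1, without any of hairpin 1 replicates 1 to 3, or without hairpin 2 replicate 1, 2 or 4. Over all 12 such fits the difference was 0.50 to 0.69 (edgeR adjusted p = 0.0258 to 0.110). Mogat1 shares 200 exonic bases with BC035947 on the opposite strand, and 12.9% of its 50-base windows also match that gene, which was not analysed here. The strand setting of the counting is not given in the sources used here, so reads of the 2 genes cannot be told apart there.

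Dgat1 (chromosome 15, 76502015 to 76511953, minus strand) and Dgat2 (chromosome 7, 99153658 to 99182719, minus strand) encode unrelated enzymes for the last step, from diacylglycerol to triglyceride. Dgat1 stood at 29.6, 31.0, 30.3 and 29.4 CPM with hairpin 1 (30.1 ± 0.76, SD, n = 4), at 34.2, 37.6, 38.8 and 32.9 CPM with hairpin 2 (35.9 ± 2.78, SD, n = 4) and at 28.8, 31.3, 28.1 and 28.9 CPM in the control (29.3 ± 1.37, SD, n = 4). All 4 hairpin 2 libraries lay above all 4 control libraries, as they did for 0.887% of all genes, and also above all 4 hairpin 1 libraries, as for 1.12% of all genes. Dgat1 rose with hairpin 2 by 0.29 on the log2 scale (SE 0.06; edgeR adjusted p = 0.0219) against the control, and by 0.25 (SE 0.06; edgeR adjusted p = 0.0473) against hairpin 1. With hairpin 1 against the control it stood at 0.04 (SE 0.06; edgeR adjusted p = 0.847), and over both hairpins at 0.17 (SE 0.05; edgeR adjusted p = 0.136).

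Dgat1 varied least by replicate number of the 10 genes: the replicate number held 12.1% of the sum of squares of its log2 CPM and the group 78.5%. The hairpin 2 value against the control was 0.25 (SE 0.08) in replicates 1 and 2 alone and 0.35 (SE 0.12) in replicates 3 and 4 alone. That call was lost without control replicate 1, control replicate 3 or hairpin 2 replicate 1 (edgeR adjusted p = 0.0651, 0.0731 and 0.0560). The call between the hairpins was lost when any library other than control replicate 3 was left out, with values of 0.21 to 0.29 and an edgeR adjusted p of 0.0391 to 0.159. Fibroblast markers were also higher with hairpin 2: 3 of 12 passed, where 2.83% of all genes passed as higher. Their summed level was 3243, 3024, 2605 and 13718 CPM with hairpin 2, against 2132, 2746, 824 and 6191 CPM in the control. Most of the sum came from Postn, Col1a1, Col1a2 and Col3a1 (means of 2663, 1208, 945 and 654 CPM with hairpin 2). Pi16 went the other way, with means of 0.455 CPM with hairpin 2 and 0.645 CPM in the control. The part of fibroblast markers in the Dgat1 difference was not tested.

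Dgat2 stood at 7.85, 13.2, 19.4 and 6.76 CPM with hairpin 1, at 5.34, 14.9, 8.32 and 4.85 CPM with hairpin 2 and at 11.3, 8.44, 21.1 and 7.43 CPM in the control. In replicates 1, 3 and 4 both hairpins lay below their control, while in replicate 2 both lay above it, by 0.65 with hairpin 1 and 0.82 with hairpin 2 on the log2 scale. Its log2 fold change was -0.08 (SE 0.28; edgeR adjusted p = 0.941) with hairpin 1 and -0.55 (SE 0.29; edgeR adjusted p = 0.286) with hairpin 2. Without control replicate 2 the hairpin 2 value was -0.88, and without hairpin 2 replicate 2 it was -0.90; both then passed (edgeR adjusted p = 0.0466 and 0.0397), so replicate 2 decides that call.

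**Figure D2:**
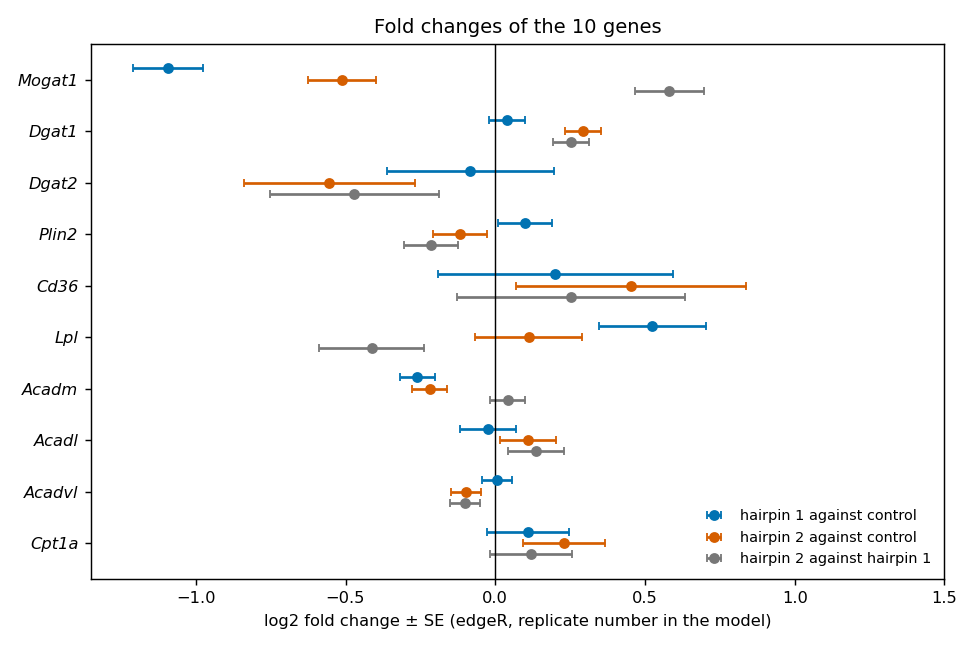
Log2 fold change (horizontal axis) with its SE for each gene from the edgeR model with the replicate number, for hairpin 1 against control, hairpin 2 against control and hairpin 2 against hairpin 1. Mogat1 lies at -1.09 and -0.51 against the control and Acadm at -0.26 and -0.22, Dgat1 is at 0.29 with hairpin 2 and 0.04 with hairpin 1, and the widest bars belong to Cd36 and Dgat2.

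Plin2 (chromosome 4, 86648386 to 86670060, minus strand), which encodes the perilipin that coats lipid droplets in most cells and milk fat globules, was the most abundant of the 10. It stood at 573, 426, 500 and 322 CPM with hairpin 1, at 449, 360, 549 and 246 CPM with hairpin 2 and at 528, 404, 577 and 246 CPM in the control. The groups overlapped fully and replicate 4 was lowest in each. Plin2 stood at -0.01 over both hairpins (SE 0.08; edgeR adjusted p = 0.972), with 0.10 for hairpin 1 (SE 0.09) and -0.12 for hairpin 2 (SE 0.09). The replicate number held 89.8% of its sum of squares.

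Cd36 (chromosome 5, 17781690 to 17888801, minus strand) encodes a membrane protein that carries fatty acids into cells, and Lpl (chromosome 8, 68880491 to 68907448, plus strand) the secreted lipase that frees them from lipoproteins. Cd36 had the lowest levels of the 10, at 1.3, 2.18, 0.37 and 4.58 CPM with hairpin 1, at 1.53, 1.91, 1.31 and 3.65 CPM with hairpin 2 and at 1.93, 1.49, 0.78 and 1.75 CPM in the control. Over both hairpins it stood at 0.33 on the log2 scale with an SE as large (0.34; edgeR adjusted p = 0.676), and no difference was detectable at the spread of these libraries. That value was 0.017 without control replicate 4, 0.60 without control replicate 1, 0.16 without hairpin 1 replicate 4 and 0.15 without hairpin 2 replicate 3.

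Lpl stood at 25.3, 17.2, 9.30 and 126 CPM with hairpin 1, at 18.1, 13.4, 6.44 and 102 CPM with hairpin 2 and at 26.1, 14.3, 5.08 and 60.3 CPM in the control. Replicate 4 was far above the others in every group, and the replicate number held 94.8% of the sum of squares, the largest share of the 10 genes. The value over both hairpins was 0.32 (SE 0.16; edgeR adjusted p = 0.338), and 0.11 without control replicate 4. It differed by pair of replicates: -0.11 (SE 0.12) in replicates 1 and 2 alone and 0.79 (SE 0.11; edgeR adjusted p = 0.0726) in replicates 3 and 4 alone. Between the hairpins Lpl was lower with hairpin 2 in 4 of 4 pairs, as were 14.7% of all genes, by -0.41 (SE 0.18; edgeR adjusted p = 0.225). In a fit of the 2 hairpin groups alone this passed (-0.42, SE 0.06; edgeR adjusted p = 0.0238).

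Like Lpl, fibroblast markers were lowest in replicate 3 and highest in replicate 4 of all 3 groups. Their summed level (12 genes, among them Col1a1, Col1a2, Col3a1 and Postn) was 2151, 3152, 965 and 7776 CPM with hairpin 1. The summed level of 10 epithelial markers was 2819 to 3055 CPM in the replicate 4 libraries and 4729 to 5441 CPM in the others. Of 13 adipocyte markers 6 had enough counts to be tested. The sum of all 13 was 9.91 to 18.9 CPM with hairpin 1, 11.4 to 23.6 CPM with hairpin 2 and 10.6 to 18.3 CPM in the control. Lipe alone gave 7.85 to 13.6 CPM of that sum, while the defining adipocyte gene Adipoq reached at most 0.685 CPM and was at 0 in 4 libraries, and Lep was at 0 in 7. Markers of macrophages, which can also express Lpl and Cd36, summed to 268, 251, 161 and 149 CPM with hairpin 1, to 255, 294, 295 and 181 CPM with hairpin 2 and to 379, 321, 182 and 166 CPM in the control. Cd14 alone gave 127 to 292 CPM of these sums, which therefore mostly describe Cd14. Lyz2 ranged from 0.015 to 94.0 CPM, and Adgre1 reached at most 1.01 CPM and was at 0 in 3 libraries. The sums were lowest in replicate 4 of every group, where Lpl was highest. The part of stromal cells in the levels of these genes was not tested.

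**Figure D3:**
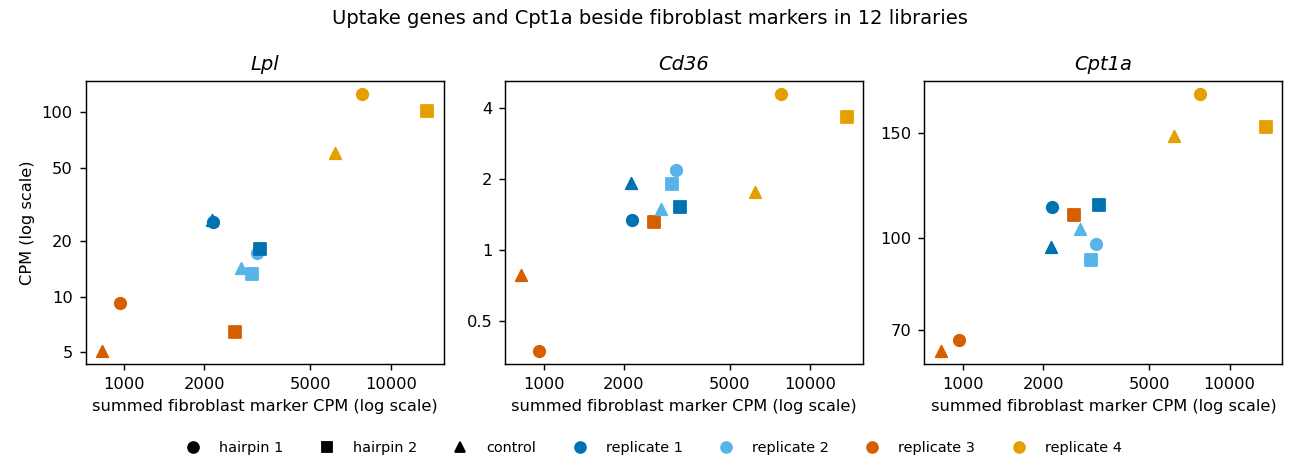
Level of Lpl, Cd36 and Cpt1a in CPM (vertical, log scale) against the summed CPM of 12 fibroblast markers (horizontal, log scale) in the 12 libraries; shapes give the group and colours the replicate number. The 3 replicate 4 libraries lie at the upper right for Lpl, at 126, 102 and 60.3 CPM, and the points share libraries and replicate numbers, so no test is given.

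Fatty acids enter mitochondria through Cpt1a (chromosome 19, 3322334 to 3385733, plus strand), the liver-type carnitine palmitoyltransferase that controls the rate of oxidation. It stood at 112, 97.6, 67.2 and 175 CPM with hairpin 1, at 113, 92.0, 109 and 154 CPM with hairpin 2 and at 96.4, 103, 64.5 and 148 CPM in the control. Replicate 4 was highest in each group, and hairpin 2 replicate 3 stood apart from the other replicate 3 libraries, 0.76 above its control on the log2 scale. The value over both hairpins was 0.17 (SE 0.12; edgeR adjusted p = 0.512), and 0.068 without hairpin 2 replicate 3 or 0.086 without control replicate 3. With hairpin 2 alone it was 0.23, and 0.029 without that hairpin 2 library.

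Acadvl, Acadl and Acadm encode the very-long-, long- and medium-chain acyl-CoA dehydrogenases, which take fatty acids of falling length in the first step of each round. Acadvl (chromosome 11, 70010183 to 70015411, minus strand) stood at 195, 176, 192 and 176 CPM with hairpin 1, at 176, 165, 192 and 157 CPM with hairpin 2 and at 186, 171, 210 and 170 CPM in the control. It was below its control in 4 of 4 pairs with hairpin 2, as were 12.8% of all genes, but by -0.10 (SE 0.05; edgeR adjusted p = 0.282). With hairpin 1 it stood at 0.00 (SE 0.05). Acadvl shares up to 377 exonic bases with Dvl2 on the opposite strand, and Dvl2 itself stood at 0.18 over both hairpins (SE 0.08; edgeR adjusted p = 0.298).

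Acadl (chromosome 1, 66830839 to 66863277, minus strand) stood at 156, 128, 116 and 128 CPM with hairpin 1, at 153, 125, 162 and 136 CPM with hairpin 2 and at 144, 140, 116 and 135 CPM in the control. The groups overlapped, with a value of 0.04 over both hairpins (SE 0.08; edgeR adjusted p = 0.841). As for Cpt1a, hairpin 2 replicate 3 lay apart, 0.48 above its control.

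Acadm (chromosome 3, 153922357 to 153944632, minus strand) was lower with both hairpins, by a small amount. It stood at 98.3, 99.3, 107 and 119 CPM with hairpin 1 (106 ± 9.38, SD, n = 4), at 97.2, 108, 119 and 110 CPM with hairpin 2 (109 ± 9.0, SD, n = 4) and at 115, 121, 125 and 147 CPM in the control (127 ± 13.9, SD, n = 4). The groups overlapped. Each hairpin library lay below the control of its number, in 8 of 8 pairs, as for 4.29% of all tested genes. Because the fall of Acadm chose the set, nothing is read from this count. The log2 fold change was -0.24 (SE 0.05) over both hairpins, -0.26 (SE 0.06) with hairpin 1 and -0.22 (SE 0.06) with hairpin 2. The value was -0.23 (SE 0.07) in replicates 1 and 2 alone and -0.24 (SE 0.10) in replicates 3 and 4 alone. With a library left out, the value over both hairpins was -0.27 to -0.20 in the 12 such fits. Hairpin 2 against hairpin 1 gave 0.04 (SE 0.06; edgeR adjusted p = 0.742).

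**Figure D4:**
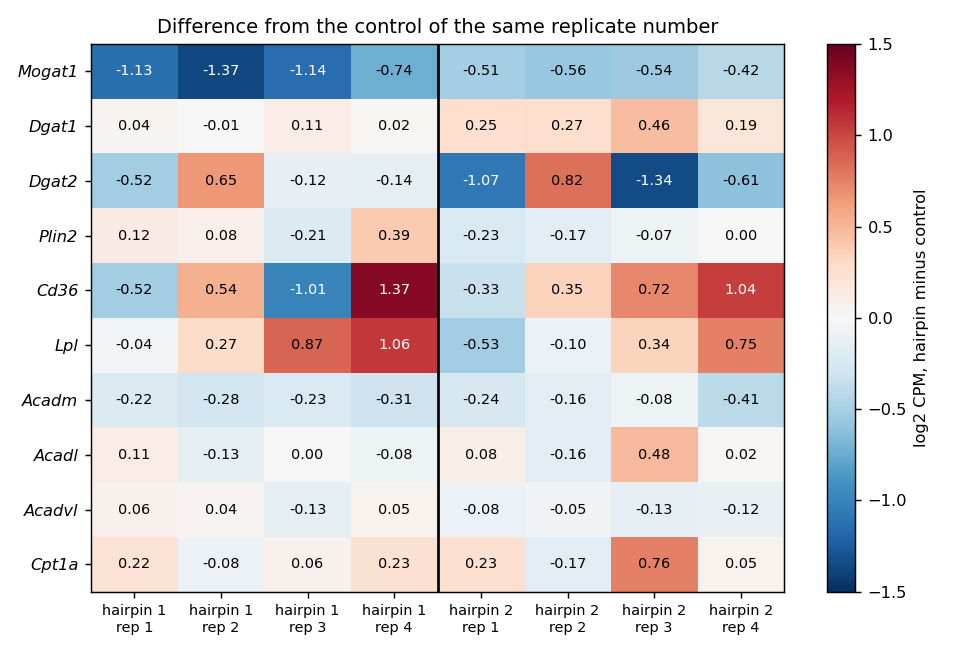
Difference in log2 CPM from the control of the same replicate number for each gene (vertical axis) and each of the 8 hairpin libraries (horizontal axis); blue is below and red above the control. Mogat1 and Acadm are below in all 8 columns, Dgat2 is above only in the replicate 2 columns, and hairpin 2 replicate 3 differs from the other hairpin 2 columns for Acadl and Cpt1a.

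Per length of exon (RPKM, which is CPM per kilobase of all annotated exons of a gene joined), the control levels spanned a wide range. The joined length was 10478 bases for Lpl, 7642 for Cpt1a and 2005 for Acadl. It can exceed the length of any 1 transcript, so the order depends on it. Plin2 led with 125 ± 42.1 RPKM, followed by Acadvl with 68.7 ± 6.94 and Acadl with 66.7 ± 6.25, Acadm with 32.4 ± 3.55, Cpt1a with 13.5 ± 4.53, Dgat1 with 9.58 ± 0.45, Mogat1 with 7.29 ± 2.19, Dgat2 with 3.91 ± 2.03, Lpl with 2.52 ± 2.31 and Cd36 with 0.41 ± 0.14 (SD, n = 4 each). Acadvl and Acadl could not be ordered, since Acadvl was higher in 1 of 4 replicates only. Cpt1a above Dgat1, Dgat1 above Mogat1 and Dgat2 above Lpl each held in 3 of 4 replicates, and the other neighbours kept their order in 4 of 4.

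With the mean of each replicate number removed, the log2 CPM of Mogat1 and Acadm had a Pearson r of 0.81 over the 12 libraries, which their choice in part sets. Plin2 and Acadvl had 0.82, and Dgat2 had -0.85 with Acadl and -0.82 with Cpt1a. Acadl and Cpt1a had 0.89, which became 0.37 when the 3 libraries of replicate 3 were left out. These points share their control and replicate number, so no p is given. Over 12426 genes with a mean of at least 2 CPM, those most like Mogat1 by the same measure were Phtf2, Ktn1, Fbxl5, Gng7 and Mfsd6 (r of 0.97 to 0.98). Those most opposite to Mogat1 were Dnajb5, Rbms2, Casp9, Dnajc5 and Keap1 (-0.97 to -0.94). For Acadm the highest were Slc6a15, Txndc16, Hbp1, Bglap3 and Csgalnact2 (0.95 to 0.96), and the lowest Arpc1a, Dbnl, Rnf157, Myadm and Gbf1 (-0.98 to -0.95). Beside the replicate number, the group held 59.8% of the sum of squares of Mogat1 and the rest 2.83%. For Acadm these were 49.3% and 11.5%. These r thus mostly follow the group means that chose the set, and the genes are extremes of 12426, so nothing is read from them.

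Around the 10 genes, 8 lists of fat metabolism held 157 further genes, of which 150 were tested. Over both hairpins 5 of 150 passed (3.33%, where 1.79% of all genes did), 1 of 150 with hairpin 1 (0.667%, where 0.728% did), 14 of 150 with hairpin 2 (9.33%, where 5.76% did) and 10 of 150 between the hairpins (6.67%, where 3.44% did). The 5 over both hairpins were Agpat2 and Acsl3, which fell, and Slc27a3, Ucp2 and Btn1a1, which rose. With each library left out in turn, these 5 calls held in 2 to 5 of 12 fits (lowest edgeR adjusted p 0.0113, highest 0.177). Of the hairpin 2 calls against the control, those of Agpat2, Acsl4, Lipa and Btn1a1 held in 12 of 12. Those of Mfge8 and Slc27a3 held in 10, Acox2 in 9, Cebpa in 7 and Acsl3 in 3. Those of Cidea, Gpd1 and Hsd17b11 held in 2, Acot2 in 1 and Acad11 in 0. The hairpin 1 call of Ucp2 held in 4 of 12. The part of the fibroblast markers, also higher with hairpin 2, in these differences was not tested. Genes named below for a single contrast were chosen after their values were seen.

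In triglyceride synthesis, 1 of 17 genes passed over both hairpins, where 1.79% of all genes passed. Agpat2, which makes phosphatidic acid on the glycerol phosphate route, fell by 0.26 (SE 0.05; edgeR adjusted p = 0.0317) and with hairpin 2 by 0.42 (SE 0.06; edgeR adjusted p = 0.00539). It stood at 42.2, 31.0, 35.9 and 27.1 CPM with hairpin 1, at 34.3, 27.2, 27.9 and 20.8 CPM with hairpin 2 and at 44.0, 36.0, 40.2 and 26.9 CPM in the control. Gpd1, which makes glycerol phosphate, rose with hairpin 2 by 0.30 (edgeR adjusted p = 0.0401). The median of the list over both hairpins was 0.04.

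Among genes of uptake and activation, 2 of 20 passed over both hairpins, where 1.79% of all genes passed. Acsl3, an acyl-CoA synthetase of lipid droplets, fell by 0.29 (SE 0.05; edgeR adjusted p = 0.0300), and Slc27a3, of the fatty acid transport protein family, rose by 0.46 (SE 0.09; edgeR adjusted p = 0.0376). Acsl4, a synthetase that prefers arachidonic acid, fell with hairpin 2 by 0.69 (SE 0.10; edgeR adjusted p = 0.00558) and stood at 0.02 with hairpin 1 (edgeR adjusted p = 0.965); hairpin 2 minus hairpin 1 was -0.71 (edgeR adjusted p = 0.00557). It stood at 1147, 867, 1373 and 871 CPM with hairpin 1, at 868, 542, 807 and 437 CPM with hairpin 2 and at 1142, 778, 1491 and 850 CPM in the control.

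In mitochondrial beta-oxidation, 0 of 31 genes passed over both hairpins by edgeR, where 1.79% of all genes passed. An unadjusted p under 0.05 was found for 7, as for 17.2% of all genes. By DESeq2 2 passed (Acad11 and Acot2), as did 6.81% of all genes. Of the 31 values 25 were below 0, as were 50.6% of all genes, with a median of -0.06, where the median of all genes was -0.0024. The list includes Hadha, a subunit of the trifunctional protein, at -0.02 (SE 0.04). With hairpin 2, Acot2, a mitochondrial thioesterase, rose by 0.31 (edgeR adjusted p = 0.0374) and Acad11 fell by 0.24 (edgeR adjusted p = 0.0455). With a library left out, these calls held in 1 and 0 of 12 fits. In peroxisomal beta-oxidation, 1 of 18 passed with hairpin 2, where 5.76% of all genes passed. Acox2, an oxidase of branched fatty acids and bile acid intermediates, fell by 0.61 with hairpin 2 (SE 0.13; edgeR adjusted p = 0.0260). Its value for hairpin 2 minus hairpin 1 was -0.84 (edgeR adjusted p = 0.00912).

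Among regulators and PPAR targets, 1 of 29 passed over both hairpins, where 1.79% of all genes passed. Ucp2, an inner-membrane carrier and known PPAR target, rose by 0.30 (SE 0.06; edgeR adjusted p = 0.0481) and with hairpin 1 by 0.44 (SE 0.07; edgeR adjusted p = 0.0283). It was higher than its control in 8 of 8 pairs, as were 3.69% of all genes, with 685, 478, 553 and 458 CPM for hairpin 1, 537, 396, 549 and 330 CPM for hairpin 2 and 474, 382, 441 and 310 CPM in the control. Of the receptors, Pparg stood at -0.18 (SE 0.19; edgeR adjusted p = 0.674) and Ppara at -0.14 (SE 0.17; edgeR adjusted p = 0.735) over both hairpins. Cebpa, a transcription factor of fat cells and secretory epithelium, rose with hairpin 2 by 0.28 (edgeR adjusted p = 0.0230).

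Lipa and Btn1a1 differed most between the hairpins among the list genes that passed there. In lipolysis, 1 of 12 passed with hairpin 2, where 5.76% of all genes passed. Lipa, the lysosomal acid lipase, rose by 0.73 with hairpin 2 (SE 0.11; edgeR adjusted p = 0.00732). It stood at -0.28 with hairpin 1 (edgeR adjusted p = 0.333), a difference between the hairpins of 1.01 (SE 0.11; edgeR adjusted p = 0.00173). Its levels were 212, 312, 253 and 329 CPM with hairpin 1, 336, 545, 679 and 719 CPM with hairpin 2 and 241, 371, 307 and 437 CPM in the control. In milk fat secretion, 3 of 10 passed with hairpin 2, where 5.76% of all genes passed. Btn1a1, the butyrophilin of the milk fat globule membrane, rose by 1.20 (SE 0.14; edgeR adjusted p = 0.00265), with 21.0, 51.1, 63.9 and 55.6 CPM for hairpin 1, 33.6, 99.7, 125 and 180 CPM for hairpin 2 and 16.9, 46.0, 67.9 and 53.2 CPM in the control. Between the hairpins it was 1.10 higher with hairpin 2 (SE 0.14; edgeR adjusted p = 0.00460). Cidea, a droplet protein needed for milk lipid secretion in mice and also in the droplet list, rose by 0.90 (SE 0.21; edgeR adjusted p = 0.0329), with 3.64 to 5.30 CPM for hairpin 2 and 1.49 to 3.62 CPM in the control. Mfge8, another globule membrane protein, fell by 0.39 (SE 0.07; edgeR adjusted p = 0.0140). In the droplet list 2 of 14 passed with hairpin 2, where 5.76% of all genes passed. They were Cidea and Hsd17b11, and Hsd17b11 fell by 0.24 (edgeR adjusted p = 0.0460).

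**Figure D5:**
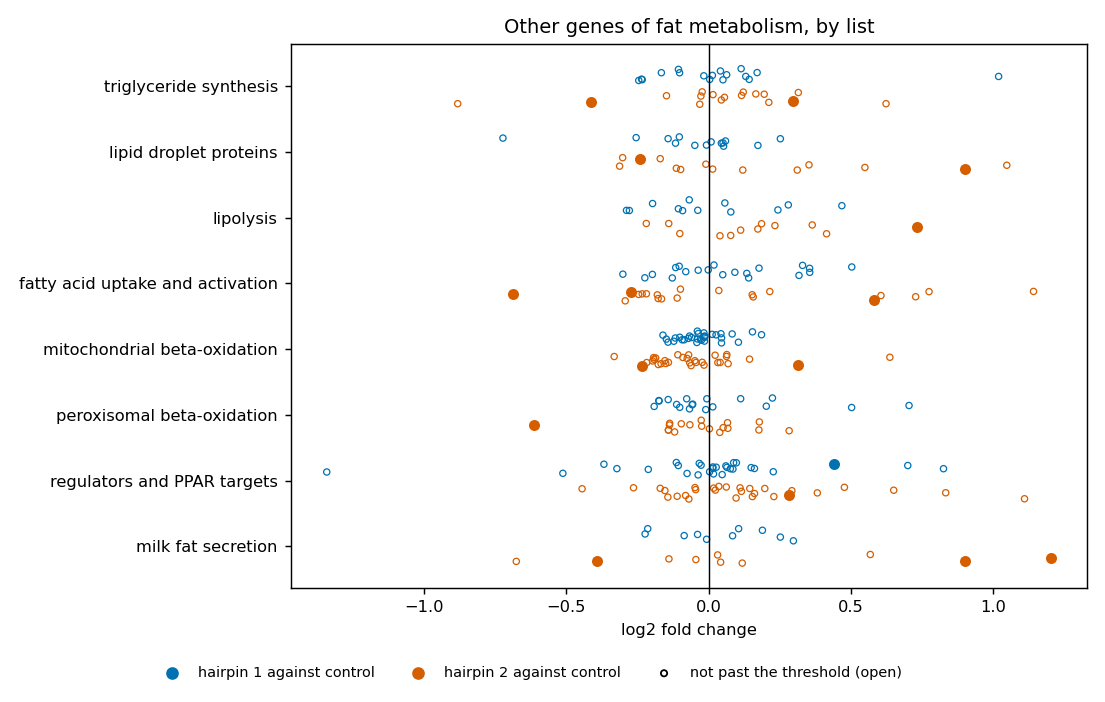
Log2 fold change (horizontal axis) of each tested gene in the 8 lists of fat metabolism (vertical axis), for hairpin 1 against control (blue, upper row of each list) and hairpin 2 against control (orange, lower row); filled points passed the edgeR threshold of 0.05 and open points did not. Of 150 genes 1 is filled for hairpin 1, Ucp2 at 0.44, and 14 for hairpin 2, from Acsl4 at -0.69 to Btn1a1 at 1.20.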

How the data were processed

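Per the labels, libraries came from oligo-dT selected RNA of 12 organoid samples, made with a NEBNext Ultra kit. The authors deposited raw counts of reads for each gene. FastQC 0.74, Trimmomatic 0.39, DESeq2 1.34.0 and the build mm10 are named in the submitters' processing notes, without roles. For the aligner, annotation and strand setting, nothing is given in the sources used here. Intervals and p-values cover these libraries only.

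A row without a symbol (0.0109 to 0.0205% of counts) was left out. Genes were filtered by edgeR's filterByExpr (8836 left out, at least 99.9% of counts kept), scaled by TMM and tested with edgeR 4.0.16 in R 4.3.3 (glmQLFit and glmQLFTest, 1 fit of 12 libraries, Benjamini-Hochberg over 17024 genes, threshold 0.05), with the replicate number as a block. The numbers paired the libraries: deviations from group means correlated at 0.855 to 0.916 for the same number and at most 0.727 for others, with 12 of 12 libraries nearest to a library of the same number. The titles give the numbers. No 2 libraries of a group were alike (chi-square per degree of freedom 54.0 to 605). Log2 CPM used a prior count of 2. RPKM used the joined length of all annotated exons of each gene in GENCODE M21 (GRCm38), the source of gene coordinates. The code was tested on simulated counts. Alternatives were no block, DESeq2 1.42.0 with the block, RLE scaling, no filter, only the groups compared, each pair of replicates alone, and each library left out.

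The named genes are the 10 members, Cldn7, list genes past the threshold over both hairpins, and the 5 highest and 5 lowest correlates of Mogat1 and Acadm; unnamed loci were left out. Other genes named (those past the threshold in 1 hairpin's contrast or between the hairpins, those called by DESeq2, markers, overlapping genes, Nfe2l2, Hadha, Pparg and Ppara) were chosen after their values were seen. Members, lists and tests were chosen with earlier results of these data known.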

Additional observations from a re-analysis of the deposited data

Results flagged for a closer look

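By the test of the difference between the hairpins itself, 2 of the 10 genes passed, where 3.44% of all genes passed. The fall of Mogat1 in these same libraries helped to choose the set, so its p-value is not an independent test. Mogat1 was 0.58 higher with hairpin 2 than with hairpin 1 on the log2 scale (SE 0.12; edgeR adjusted p = 0.0276), and Dgat1 was 0.25 higher (SE 0.06; edgeR adjusted p = 0.0473). Each was higher in 4 of 4 pairs, as were 15.6% of all genes. With a library left out, the Mogat1 call held in 5 of 12 fits and the Dgat1 call in 1 of 12. Cldn7 stood at -0.23 (SE 0.08; edgeR adjusted p = 0.148) in the same contrast.

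Lpl had a library far from the others of its group with each hairpin. It was 126 CPM in hairpin 1 replicate 4, where the gap to the next library was 0.862 of the group's range, and 102 CPM in hairpin 2 replicate 4, where it was 0.878. Control replicate 4 was also highest, at 60.3 CPM, without passing that criterion. By chance about 1 in 20 groups of independent libraries is picked out this way. Here replicate 4 was highest in each group and the replicate numbers pair the groups, so the 2 flags are not separate events.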

How the results depend on the processing

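The largest dependence was on the pairing. With no replicate block, 1 gene passed in each contrast and 0 of the 10 genes described here in any, where the model with the block called 304 genes over both hairpins, 124 with hairpin 1, 981 with hairpin 2 and 585 between the hairpins; Mogat1 between the hairpins was then 0.61. DESeq2 with the block called 1160, 607, 1860 and 1429 genes in that order, with 2 of the 10 with hairpin 1 and 3 with hairpin 2. With only the groups compared the counts were 48, 390 and 97 against the control, with 0, 2 and 0 of the 10. Between the hairpins 504 genes passed in that setting, with 1 of the 10. That gene was Lpl (-0.42, edgeR adjusted p = 0.0238), while Mogat1 and Dgat1 no longer passed there (edgeR adjusted p = 0.0639 and 0.0759). With replicates 1 and 2 alone 25, 9, 82 and 84 genes passed, and with replicates 3 and 4 alone 5, 1, 327 and 42, with 0 of the 10 in any contrast of either. Without the filter 1 of the 10 passed over both hairpins and 1 between the hairpins, and with RLE size factors 1 between the hairpins. With a library left out, 39 to 554, 2 to 344, 344 to 1075 and 165 to 673 genes passed, and 1 to 2, 0 to 2, 0 to 3 and 0 to 2 of the 10.

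Some signs turned. Over both hairpins Plin2 was 0.0043 without the filter and 0.051 in replicates 3 and 4, and in replicates 1 and 2 Cd36 was -0.0035, Lpl -0.11 and Acadl -0.026. With hairpin 1, Acadvl was -0.023 in replicates 3 and 4. With hairpin 2, in replicates 1 and 2, Cd36 was -0.018, Lpl -0.32 and Acadl -0.045. Between the hairpins Cd36 was -0.013 without the block, and in replicates 1 and 2 Cd36 was -0.029, Acadl -0.038 and Cpt1a -0.042. With a library left out, signs turned over both hairpins for Acadl (-0.023 to 0.11) and Plin2 (-0.076 to 0.042); with hairpin 1 for Acadl (-0.085 to 0.040), Acadvl (-0.013 to 0.045), Cd36 (-0.17 to 0.54) and Dgat2 (-0.36 to 0.086); with hairpin 2 for Acadl (-0.017 to 0.18) and Lpl (-0.099 to 0.33); and between the hairpins for Acadm (-0.0028 to 0.097), Cd36 (-0.10 to 0.66) and Cpt1a (-0.078 to 0.22). Mogat1 and Acadm were lower than the control under every alternative listed, but their fall in these libraries chose the set, so nothing is read from this. The Acadm call over both hairpins held in 2 of 12 fits with a library left out. The cause of the turned signs was not tested. Depth limits Cd36 most, with a lowest library count of 25.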
